A study of Homo sapiens with 9 samples.

Results

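The genes described here are 10 contractile and actin-binding genes, ACTA2, TAGLN, MYL9, TPM1, TPM2, CALD1, LIMA1, FLNC, PDLIM7 and MYH9. They were found by GENCODE release 29 symbol, all 10 among the 58233 genes of the files, and all 10 had enough counts to be tested among 15440 genes. The cells are UPCI-SCC-040, a cell line grown from a tongue squamous carcinoma. The groups are 3 libraries after 48 h and 3 after 72 h with transforming growth factor beta 1 (TGF-β1) at 5 ng/ml, and 3 libraries of untreated controls. Each group holds 1 library from each of passages 12, 13 and 8, called replicates 1, 2 and 3. TGF-β1 was given in medium free of serum and antibiotics, the growth medium held serum, and the control titles carry 0 h. Whether the controls were kept in medium with serum is not given in the labels. In the comparisons with control the factor, any loss of serum and the hours in culture cannot be told apart. All libraries come from 1 tumour line, and nothing but the passage marks the replicates as separate. A p-value here therefore reflects the spread among these libraries, which may be technical.

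Cells pull on their surroundings with bundles of actin filaments and myosin motors. Tropomyosins and caldesmon lie along the filaments and set when myosin may act, filamins and LIM proteins cross-link the filaments or tie them to adhesions, and phosphorylation of the regulatory light chain switches the motor on. TGF-β is well known for inducing smooth muscle actin and SM22 in fibroblasts that become myofibroblasts, and for inducing stress fibres and tropomyosins in epithelial cells. Many of these genes carry binding sites for serum response factor (SRF), the transcription factor whose cofactors sense free actin.

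Library totals ran from 12544690 to 20438727 counts. All 10 squamous epithelial markers that were checked, among them KRT5, KRT14 and TP63, were above 1 CPM in every library. Their sum was 26101 to 34232 CPM at 48 h, 17390 to 26882 CPM at 72 h and 11778 to 21212 CPM in controls. Abundant genes such as KRT5 and KRT14 weigh most in this sum, and its members did not all move with it. EPCAM was lower after treatment, at 101 to 153 CPM at 48 h and 107 to 144 CPM at 72 h, against 155 to 203 CPM in controls. CPM is a gene's count relative to the total of its library, scaled by trimmed means (TMM). Of 8 smooth muscle markers DES had 0 counts in all 9 libraries and MYOCD had 2 counts in all. CNN1, LMOD1 and ACTG2 stayed under 0.35 CPM. MYH11 was at 1.94 to 2.21 CPM at 48 h, 1.24 to 1.71 CPM at 72 h and 1.07 to 1.99 CPM in controls. SYNPO2 was at 0.490 to 4.08 CPM at 48 h, 0.342 to 3.34 CPM at 72 h and 0.301 to 0.430 CPM in controls. The summed level of that list was 182 to 322 CPM at 48 h, 136 to 310 CPM at 72 h and 97 to 130 CPM in controls. SMTN alone gave 175 to 319 CPM at 48 h, 131 to 308 CPM at 72 h and 95 to 127 CPM in controls. The summed level of 8 fibroblast markers was 8.58 to 38.9 CPM at 48 h, 18.6 to 44.2 CPM at 72 h and 3.87 to 5.91 CPM in controls. FAP and COL1A2 held nearly all of it, and DCN had 1 count and THY1 2 counts over all libraries. The endothelial list and the leukocyte list each summed to under 3 CPM in every library. The part of these marker genes in the results below was not tested. The 72 h library of replicate 3 lay apart from the others at 84.4 on the first principal component, against 9.13 to 37.8 for the other treated libraries and -75.2 to -63.7 for controls. Fewer cells of a state and less RNA per cell cannot be told apart in such bulk libraries.

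Promoter windows are shown for the 4 members that rose at both times and for ACTA2, the best known TGF-β-responsive gene of the set. RefSeq (GRCh38.p14) gave windows for 8 of the 10 members, 14 in all since ACTA2, TPM2, CALD1 and LIMA1 have several starts. The windows of TAGLN and MYL9 are not shown. Each holds 250 bases before a start and 50 after it. Capitals mark matches, on either strand, to CAGAC (reverse GTCTG, a SMAD core), GGAATG (reverse CATTCC, a TEAD core) or TGANTCA (an AP-1 site). The windows printed for LIMA1, CALD1 and ACTA2 all hold GGAATG. LIMA1 window 1, CALD1 windows 1 and 4 and ACTA2 window 1 lack it and are not printed, nor is CALD1 window 2, which holds it. The printed windows are therefore not a fair sample of the 14.
FLNC, chr7:128830156-128830455, plus strand: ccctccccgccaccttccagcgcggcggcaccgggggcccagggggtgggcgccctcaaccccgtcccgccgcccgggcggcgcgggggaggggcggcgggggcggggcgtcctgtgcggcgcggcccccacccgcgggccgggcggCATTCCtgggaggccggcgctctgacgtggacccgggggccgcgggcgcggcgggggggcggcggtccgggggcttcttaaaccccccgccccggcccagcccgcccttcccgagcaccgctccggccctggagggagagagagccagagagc
PDLIM7, chr5:177497555-177497854, minus strand: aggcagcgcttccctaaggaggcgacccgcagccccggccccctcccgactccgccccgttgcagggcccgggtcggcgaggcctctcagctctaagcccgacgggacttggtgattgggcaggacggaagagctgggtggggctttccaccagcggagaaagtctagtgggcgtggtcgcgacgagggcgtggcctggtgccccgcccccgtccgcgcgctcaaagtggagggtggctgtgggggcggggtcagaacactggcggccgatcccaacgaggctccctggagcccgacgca
LIMA1, window 2, chr12:50202124-50202423, minus strand: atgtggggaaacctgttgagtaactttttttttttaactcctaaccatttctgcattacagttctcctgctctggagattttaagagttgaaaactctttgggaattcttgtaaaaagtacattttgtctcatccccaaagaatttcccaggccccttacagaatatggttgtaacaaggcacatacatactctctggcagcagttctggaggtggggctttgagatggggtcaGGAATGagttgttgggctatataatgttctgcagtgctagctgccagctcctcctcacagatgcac
CALD1, window 3, chr7:134779384-134779683, plus strand: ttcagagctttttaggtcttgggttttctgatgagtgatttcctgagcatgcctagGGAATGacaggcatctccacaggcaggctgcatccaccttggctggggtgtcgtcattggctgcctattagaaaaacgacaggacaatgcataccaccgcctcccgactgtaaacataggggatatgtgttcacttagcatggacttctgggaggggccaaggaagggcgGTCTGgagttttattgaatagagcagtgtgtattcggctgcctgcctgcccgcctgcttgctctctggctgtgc
ACTA2, window 2, chr10:88952724-88953023, minus strand: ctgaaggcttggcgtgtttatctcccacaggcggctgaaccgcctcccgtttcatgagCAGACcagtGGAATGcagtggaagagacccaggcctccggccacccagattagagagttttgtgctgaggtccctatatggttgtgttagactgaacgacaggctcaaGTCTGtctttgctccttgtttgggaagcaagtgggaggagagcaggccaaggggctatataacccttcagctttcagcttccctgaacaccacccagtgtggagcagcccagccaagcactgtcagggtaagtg

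GGAATG was in 6 of the 14 windows, from ACTA2, CALD1, LIMA1, FLNC and MYH9, and in 14.0% of all 35116 RefSeq windows. CAGAC was in 9 of 14 windows, from 5 genes, and in 45.3% of all. TGANTCA was in 1 of 14, a CALD1 window not printed, and in 7.71% of all. The strict CArG box (CC, 6 bases of A or T, GG), 1 form of the SRF site, was in 0 of 14 windows and in 1.29% of all. Forms that differ from it by a base were not searched for, and TAGLN and MYL9 had no window to search. Whether the members have SRF sites is therefore not shown by this count. The motifs searched for do not overlap in the printed windows, and the window of PDLIM7 held none of them. Members that rose (CALD1, LIMA1, FLNC) and members that did not pass (ACTA2, MYH9) both had GGAATG. Which start the cells used is not resolved by counts per gene, windows of 1 gene are not independent, and a match is a description of letters.

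The members fell into an abundant and a scarce set. Per kilobase of annotated exon, which allows genes to be compared, controls averaged 273 ± 9.99 CPM per kb for MYH9, 196 ± 32.1 for TPM2 and 59.3 ± 5.63 for LIMA1 (SD, n = 3). PDLIM7 followed at 17.8 ± 3.84, CALD1 at 16.0 ± 1.78 and TPM1 at 7.94 ± 0.69 CPM per kb. The remaining genes were below 1 CPM per kb, TAGLN at 0.507 ± 0.288, MYL9 at 0.245 ± 0.163, ACTA2 at 0.239 ± 0.0692 and FLNC at 0.0966 ± 0.0227. In controls PDLIM7 and CALD1 overlapped, as did TAGLN, MYL9 and ACTA2 with each other, and the other neighbours in this order did not. The genes best known as myofibroblast or smooth muscle markers were thus in the scarce set. The exon length is the union over all annotated transcripts, 34 of them for TPM1, so the length-scaled level of a gene with many alternative exons is understated. Counts per gene do not separate the muscle and non-muscle isoforms that TPM1, TPM2 and CALD1 are known to make.

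**Figure D1:**
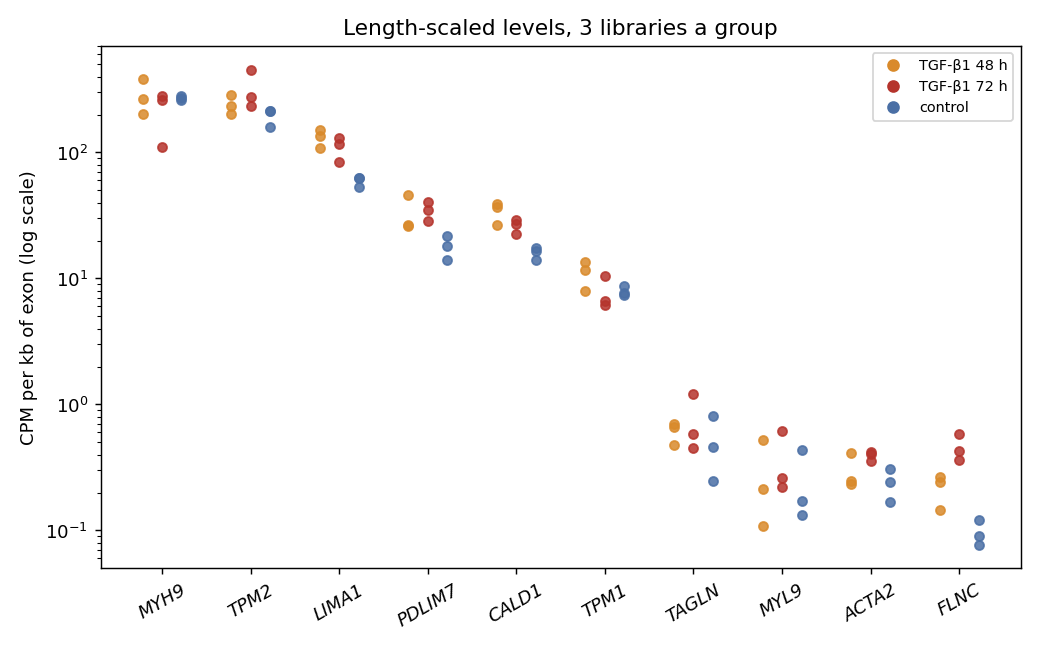
Length-scaled levels (CPM per kb of exon, log scale) of the 10 genes, ordered by their control mean, with 1 point per library and 3 libraries a group. MYH9 to TPM1 lie above 6 CPM per kb in every library, and TAGLN, MYL9, ACTA2 and FLNC lie below 1.3.

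After 48 h of TGF-β1, 4 of the 10 members were higher than in controls and 0 were lower. These were CALD1, LIMA1, FLNC and PDLIM7, with folds of 1.85 to 2.21. Without control 1, control 2 or 48 h replicate 2, 2 members passed at 48 h, while of all genes 2860 of 15972, 2631 of 15891 and 3920 of 16000 passed in those fits. CALD1, LIMA1, FLNC and PDLIM7 were also the 4 members whose 48 h libraries all lay above the controls, as 25.6% of all genes did. Across all genes tested 31.0% passed an adjusted p of 0.05 in this comparison, 14.9% higher and 16.0% lower, in edgeR's quasi-likelihood F test, with p-values adjusted by Benjamini-Hochberg over 15440 genes. The members' median log2 fold change was 0.39, against 0.00 over all genes tested. The same 4 members were higher after 72 h and 0 were lower, where 39.8% of all genes passed, 20.4% higher and 19.4% lower. The members' median was 0.70 at 72 h, against 0.03 over all genes tested. The members were chosen with earlier results of these data known, so both medians describe the list and do not test it. The share of members that passed at 72 h was close to the background share, and both comparisons use the same controls. For 6 members all 72 h libraries lay above the controls, as for 27.3% of all genes. Without 72 h replicate 3, the library that lay apart, the 72 h log2 fold changes were 2.02 for FLNC, 1.07 for LIMA1, 0.85 for PDLIM7 and 0.64 for CALD1 (adjusted p = 0.00157, 0.00118, 0.0335 and 0.0187, edgeR).

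**Figure D2:**
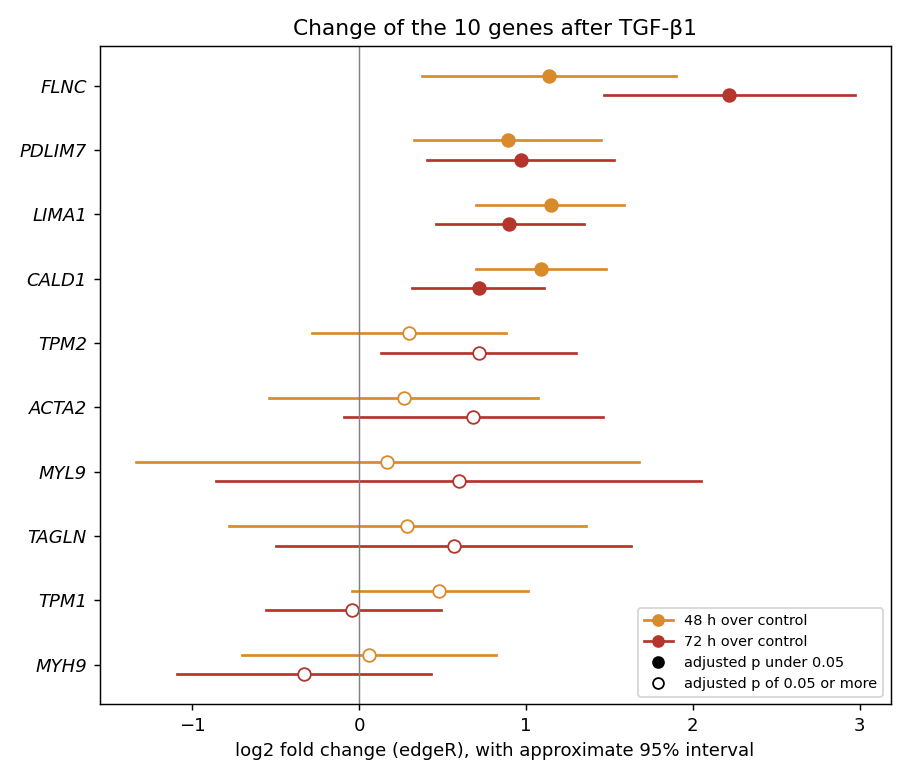
Log2 fold changes of the 10 genes with approximate 95% intervals, 48 h over control above 72 h over control for each gene, filled where the adjusted p was under 0.05. FLNC, PDLIM7, LIMA1 and CALD1 are filled at both times, and the intervals of MYL9 and TAGLN are the widest.

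Among the genes of the contractile apparatus itself, ACTA2, TAGLN and MYL9 were at low counts, 5 to 84 a library. ACTA2 (ENSG00000107796, chromosome 10, 88935074 to 88991339, minus strand, GRCh38) encodes smooth muscle actin. It had 14, 12 and 15 counts at 48 h and 22, 21 and 17 at 72 h in replicates 1, 2 and 3, against 12, 17 and 7 in controls. In CPM this was 0.698, 0.735 and 1.22 at 48 h and 1.24, 1.20 and 1.05 at 72 h, against 0.723, 0.913 and 0.502 in controls. The 48 h libraries overlapped the controls and the 72 h libraries lay above them. The log2 fold change was 0.27 ± 0.36 at 48 h (approximate SE; adjusted p = 0.605, edgeR) and 0.68 ± 0.35 at 72 h (adjusted p = 0.141), with a 72 h interval of -0.09 to 1.46. Without 48 h replicate 3 the 48 h value was -0.01. Of its exon bases 12.8% lie over exons of FAS, at 6.93 to 11.6 CPM at 72 h and 4.64 to 7.73 CPM in controls, and 17.3% over the antisense gene ACTA2-AS1, under 0.4 CPM throughout. Without the strand setting, which is not given in the sources used here, reads there cannot be assigned.

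TAGLN (ENSG00000149591, chromosome 11, 117199321 to 117204782, plus strand) encodes transgelin, or SM22, an actin-binding protein of smooth muscle. It had 2.59, 2.76 and 1.87 CPM at 48 h and 4.74, 1.77 and 2.29 CPM at 72 h, against 3.20, 0.967 and 1.79 CPM in controls. Both treated groups overlapped the controls, and the control spread was more than 3-fold. Against controls its log2 fold change was 0.29 ± 0.48 at 48 h and 0.57 ± 0.48 at 72 h (adjusted p = 0.679 and 0.364, edgeR), with a 72 h interval of -0.50 to 1.63. In each replicate the 72 h library was above its own control, by 0.55, 0.80 and 0.33 on the log2 scale. The 72 h value was 0.03 without 72 h replicate 1 and 1.10 without control 1, and the 48 h value was -0.05 without control 2. Such a fit leaves the passages unequal between the groups. Without the whole of replicate number 1, 2 or 3 the 72 h value was 0.56, 0.49 and 0.66. The 48 h value was then 0.77, -0.13 and 0.38. With the replicate number as a block the 72 h value was 0.57 (adjusted p = 0.236, edgeR). Exons of PCSK7, at 19.9 to 28.1 CPM at 72 h and 20.4 to 23.0 CPM in controls, cover 11.4% of its exon bases on the other strand.

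MYL9 (ENSG00000101335, chromosome 20, 36541484 to 36551447, plus strand) encodes a regulatory light chain of smooth muscle and non-muscle myosin. It had 0.598, 0.306 and 1.47 CPM at 48 h and 0.733, 0.627 and 1.73 CPM at 72 h, against 0.482, 0.376 and 1.22 CPM in controls. Within each group the library of replicate 3 (passage 8) was the highest, and the groups overlapped. Its log2 fold change was 0.17 ± 0.68 at 48 h and 0.60 ± 0.65 at 72 h (adjusted p = 0.870 and 0.487, edgeR). With replicates compared within a passage, the 72 h libraries were higher by 0.50, 0.59 and 0.47 on the log2 scale. The 72 h interval ran from -0.86 to 2.05. Single libraries moved the value, to 0.03 without 72 h replicate 3 and 1.24 without control 3, and the 48 h value was -0.54 without 48 h replicate 3. Such a fit leaves the passages unequal between the groups. Without the whole of replicate number 1, 2 or 3 the 72 h value was 0.59, 0.53 and 0.67. The 48 h value was then 0.14, 0.26 and 0.11. With the replicate number as a block the 72 h value was 0.59 (adjusted p = 0.202, edgeR).

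MYH9 (ENSG00000100345, chromosome 22, 36281277 to 36388067, minus strand), the heavy chain of non-muscle myosin IIA, was the most abundant member. It had 2396, 3472 and 1821 CPM at 48 h and 2529, 2330.1 and 1003 CPM at 72 h, against 2451, 2368 and 2548 CPM in controls. The controls lay close together, the treated libraries spread to both sides of them, and 72 h replicate 3 was the lowest. The log2 fold change was 0.06 ± 0.34 at 48 h and -0.33 ± 0.34 at 72 h (adjusted p = 0.909 and 0.463, edgeR). Without 72 h replicate 3 the 72 h value was -0.01 (adjusted p = 0.977), and without 48 h replicate 2 the 48 h value was -0.22 (adjusted p = 0.680).

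The tropomyosins, the coiled-coil proteins that lie along actin filaments, did not pass in either comparison, and their values differed. TPM1 (ENSG00000140416, chromosome 15, 63042632 to 63071915, plus strand) had 174, 103 and 151 CPM at 48 h and 135, 85.1 and 79.6 CPM at 72 h, against 95.1, 112 and 99.3 CPM in controls. Replicates 1 and 3 were above their controls at 48 h and replicate 2 was not, and only replicate 1 was above its control at 72 h. edgeR gave a log2 fold change of 0.48 ± 0.24 at 48 h and -0.04 ± 0.24 at 72 h (adjusted p = 0.145 and 0.917). With no filter on low counts the 48 h value passed (0.49, adjusted p = 0.0338). The antisense gene TPM1-AS covers 16.1% of the exon bases of TPM1 and was at 0.735 to 1.80 CPM at 48 h and 0.513 to 1.13 CPM at 72 h, against 0.376 to 0.482 CPM in controls.

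TPM2 (ENSG00000198467, chromosome 9, 35681992 to 35690121, minus strand) had 660.3, 755 and 935 CPM at 48 h and 898, 757 and 1476 CPM at 72 h, against 515, 693 and 698 CPM in controls. The 48 h libraries overlapped the controls, and the 72 h libraries lay above them. Against controls its log2 fold change was 0.30 ± 0.26 at 48 h (adjusted p = 0.405, edgeR) and 0.72 ± 0.26 at 72 h (adjusted p = 0.0523). The 72 h value passed with the replicate number as a block (0.68, adjusted p = 0.0223), in DESeq2 (0.71, adjusted p = 0.0250) and in 3 other alternatives. It rests in part on 72 h replicate 3, without which it was 0.39 (adjusted p = 0.150).

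**Figure D3:**
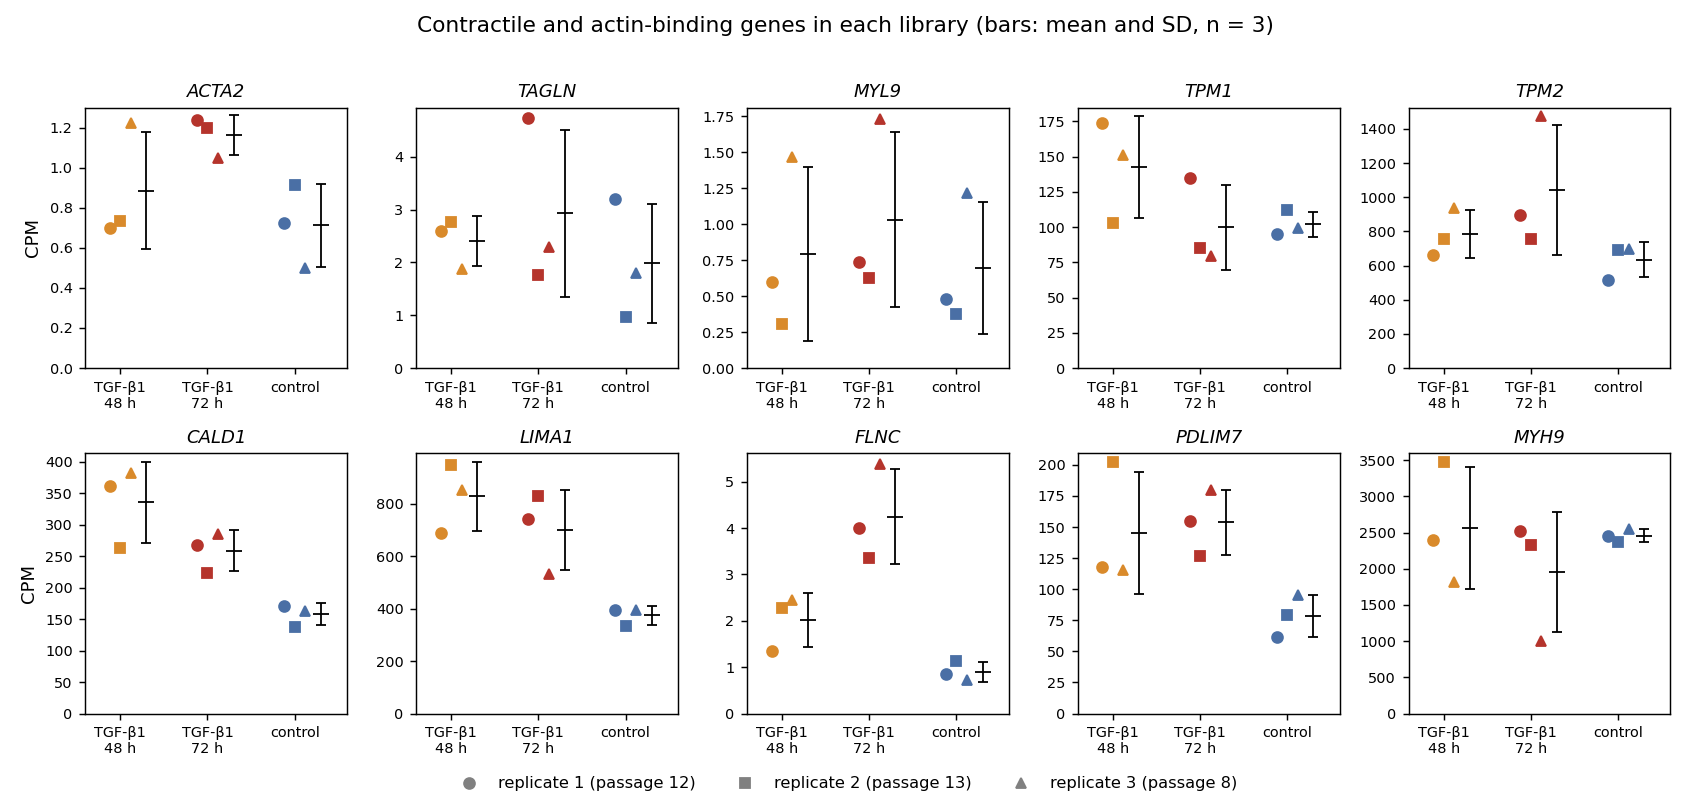
CPM of each gene in each of the 9 libraries, on axes that start at 0, with the symbol giving the replicate and passage and bars giving mean and SD (n = 3). CALD1, LIMA1, FLNC and PDLIM7 have all treated points above all control points, and MYH9 has its lowest point in 72 h replicate 3.

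CALD1 (ENSG00000122786, chromosome 7, 134744252 to 134970728, plus strand) encodes caldesmon, which binds actin, tropomyosin and myosin and holds back the motor. It rose to 362, 262 and 383 CPM at 48 h and 267, 224 and 286 CPM at 72 h, against 171, 138 and 164 CPM in controls. All 6 treated libraries lay above all controls, and in each passage the 48 h library was the highest. Its log2 fold change was 1.09 ± 0.18 at 48 h (adjusted p = 0.00251, edgeR) and 0.72 ± 0.18 at 72 h (adjusted p = 0.0103). The increase within a passage was 1.08, 0.93 and 1.23 at 48 h and 0.64, 0.70 and 0.80 at 72 h on the log2 scale, the narrowest spread of the 4 members that rose. Without control 2 the 72 h value lost its call (0.62, adjusted p = 0.0510).

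LIMA1 (ENSG00000050405, chromosome 12, 50175788 to 50283546, minus strand) encodes EPLIN, a LIM protein that bundles actin filaments, slows their disassembly and links them to cadherin complexes in epithelium. It rose to 688, 948 and 851 CPM at 48 h and 740, 829 and 532 CPM at 72 h, against 396, 334 and 394 CPM in controls. All treated libraries lay above all controls, the 72 h and 48 h libraries overlapped, and 72 h replicate 3 was the lowest treated library. The log2 fold change was 1.15 ± 0.20 at 48 h (adjusted p = 0.00339, edgeR) and 0.90 ± 0.20 at 72 h (adjusted p = 0.00646). Neither call was lost without any 1 library. In absolute CPM this was the largest rise among the 4, from an already abundant transcript.

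PDLIM7 (ENSG00000196923, chromosome 5, 177483394 to 177497606, minus strand) encodes enigma, a PDZ and LIM protein that joins actin filaments and tropomyosin to signalling proteins. It rose to 118, 202 and 116 CPM at 48 h and 155, 127 and 179 CPM at 72 h, against 61.2, 79.3 and 95 CPM in controls. All treated libraries lay above all controls and the 72 h and 48 h libraries overlapped. The gap to controls was small at 48 h, where replicate 3 was 0.28 above its control on the log2 scale and replicate 2 was 1.35 above. edgeR gave a log2 fold change of 0.89 ± 0.25 at 48 h (adjusted p = 0.0243) and 0.97 ± 0.25 at 72 h (adjusted p = 0.0131). The 48 h call was lost without control 1, control 2 or 48 h replicate 2 (adjusted p = 0.0900, 0.0755 and 0.0691, with 0.57 for the last). The 72 h call was lost without control 1 (adjusted p = 0.0544).

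FLNC (ENSG00000128591, chromosome 7, 128830377 to 128859274, plus strand) encodes filamin C, the actin cross-linker of muscle. It had 27, 37 and 30 counts at 48 h and 71, 59 and 87 counts at 72 h, against 14, 21 and 10 counts in controls. In CPM it rose to 1.35, 2.27 and 2.45 at 48 h and 4.0, 3.36 and 5.38 at 72 h, against 0.844, 1.13 and 0.717 in controls. No 2 of the 3 groups overlapped. The log2 fold change was 1.14 ± 0.34 at 48 h (adjusted p = 0.0301, edgeR) and 2.22 ± 0.33 at 72 h (adjusted p = 0.00124), which is a 4.67-fold rise at 72 h. The 72 h call held in all 19 alternatives, with log2 fold changes of 1.89 to 2.57. The 48 h call was lost when control 1, 2 or 3 was left out, and also without the 48 h library of replicate 2 or of replicate 3 (adjusted p = 0.0515 to 0.101). FLNC was the least abundant member per kilobase in controls, and at 72 h it was at 0.458 ± 0.111 CPM per kb (SD, n = 3).

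Between 72 h and 48 h, 0 members passed, as did 0 of all 15440 genes (0%; edgeR). Before adjustment 1382 genes (8.95%) and 1 member had a p under 0.05, and DESeq2 called 39 genes and 0 members. FLNC was 2.12-fold higher at 72 h, at 4.25 ± 1.03 CPM against 2.02 ± 0.590 CPM at 48 h (SD, n = 3; log2 fold change 1.08 ± 0.31, unadjusted p = 0.00638, adjusted p = 0.466). It was the only member whose 72 h and 48 h libraries did not overlap, as 7.07% of all genes did in that direction. CALD1 and TPM1 had lower values at 72 h in each of the 3 passages, with log2 fold changes of -0.37 ± 0.17 and -0.52 ± 0.24 (adjusted p = 0.565 and 0.562). The interval of the difference was -0.68 to 0.20 for LIMA1 and -0.47 to 0.63 for PDLIM7.

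The members did not share 1 pattern over the libraries. As a description over 9 libraries, which differ in group, passage and depth, the nearest member to CALD1 was LIMA1 (Pearson r = 0.783, log2 CPM) and the nearest to TPM2 was FLNC (0.816). The member least like TPM2 was MYH9 (-0.773). In 72 h replicate 3, TPM2 had its highest level and MYH9 its lowest. Outside the set, the protein-coding gene most like each member was FLRT2 for LIMA1 (0.987), PFKFB4 for CALD1 (0.984), ARHGEF11 for FLNC (0.989) and FKBP2 for PDLIM7 (0.973). It was CHST11 for MYH9 (0.981), RAMP1 for TPM2 (0.977), JUN for TPM1 (0.974), SPRR1A for TAGLN (0.922), SLC25A28 for MYL9 (0.919) and C2orf76 for ACTA2 (0.908). Each is the highest correlation among all tested protein-coding genes, so high values occur by selection.

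Of 82 other genes of the actin and myosin system 75 could be tested. At 48 h 14 were higher and 5 lower (25.3% called, against 31.0% of all genes), and at 72 h 16 were higher and 6 lower (29.3%, against 39.8%). Their median log2 fold changes were 0.12 and -0.03. The list's share of calls was below the background at both times. Without 72 h replicate 3 its count at 72 h was 23, and 5732 of all 15842 genes passed in that fit. Without control 1, 2 or 3 its count at 48 h was 11, against 19 with all libraries. Calls over all genes fell too, to 2860 of 15972, 2631 of 15891 and 2991 of 15950, from 4779 of 15440.

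The cytoplasmic actins ACTB and ACTG1 did not pass. They averaged 5001 ± 1719.9 and 2560.4 ± 427 CPM at 48 h and 4232 ± 1507 and 1659 ± 532 CPM at 72 h, against 4419 ± 252 and 2484 ± 117 CPM in controls (SD, n = 3). Muscle actins ACTA1, ACTC1 and ACTG2 had 20, 4 and 10 counts over all libraries and were not tested. Among 7 myosin chains only MYL12A, a non-muscle regulatory light chain, passed, with log2 fold changes of 0.58 ± 0.13 and 0.43 ± 0.13 at 48 h and 72 h (adjusted p = 0.0109 and 0.0278). SRF, MRTFA and MRTFB had log2 fold changes between -0.17 and 0.00 at both times and did not pass.

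Regulators of contraction moved in both directions. RHOB, a small GTPase, rose to 206 ± 54.4 CPM at 48 h and 181 ± 51.6 CPM at 72 h, against 78.0 ± 29.4 CPM in controls (log2 fold changes 1.40 and 1.22, adjusted p = 0.0120 and 0.0159). RND3, which opposes RhoA, fell to 123 ± 37.8 CPM at 48 h and 85.7 ± 12.0 CPM at 72 h, against 212 ± 10.9 CPM in controls (-0.79 and -1.31, adjusted p = 0.0216 and 0.00191). MYLK, a myosin light chain kinase, also fell, with log2 fold changes of -0.56 ± 0.18 at 48 h and -0.73 ± 0.18 at 72 h (adjusted p = 0.0390 and 0.0102, edgeR). Of the 11 genes in this class 1 rose and 2 fell at 48 h, and 2 rose and 2 fell at 72 h. The share called was 27.3% at 48 h and 36.4% at 72 h, against 31.0% and 39.8% of all genes. Smoothelin (SMTN) was the 1 gene of 7 tested tropomyosins, calponins and transgelins that passed, at 1.00 ± 0.32 and 0.93 ± 0.32 (adjusted p = 0.0440 and 0.0460). SYNPO, an actinin-binding protein, was the 1 of 6 filamins and actinins, at 0.79 ± 0.22 and 0.65 ± 0.22 (adjusted p = 0.0227 and 0.0387).

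LIM and PDZ-LIM adaptors had 5 rises and 0 falls at 48 h and 6 rises and 0 falls at 72 h among 17 tested. The share called was 29.4% at 48 h and 35.3% at 72 h. Of all genes tested 31.0% were called at 48 h, 14.9% higher, and 39.8% at 72 h, 20.4% higher. FHL1, a LIM-only protein of muscle, rose to 178 ± 35.5 CPM at 48 h and 267 ± 62.7 CPM at 72 h, against 58.1 ± 13.6 CPM in controls (1.62 and 2.20, adjusted p = 0.00184 and 0.000438). ABLIM3, an actin-binding LIM protein, rose by 1.23 ± 0.35 and 1.48 ± 0.35 (adjusted p = 0.0247 and 0.00887). Adhesion linkers had 3 rises at each time among 9, with 1 fall at 48 h (44.4% called at 48 h and 33.3% at 72 h). FERMT2, the integrin activator kindlin-2, rose by 1.08 ± 0.13 and 0.84 ± 0.13 (adjusted p = 0.000848 and 0.00129) and PARVA, which binds actin beside integrins, by 0.81 ± 0.13 and 0.87 ± 0.13 (adjusted p = 0.00230 and 0.00110). Of 13 filament turnover genes 2 rose and 2 fell at 48 h (30.8% called), and 2 rose and 4 fell at 72 h (46.2%). GSN, the filament-severing gelsolin, rose to 351 ± 21.9 CPM at 48 h and 416 ± 121 CPM at 72 h, against 107 ± 24.5 CPM in controls (1.71 and 1.96, adjusted p = 0.00126 and 0.000526). CFL2, the cofilin of muscle, fell by 0.66 ± 0.14 and 0.95 ± 0.14 (adjusted p = 0.00682 and 0.00105).

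**Figure D4:**
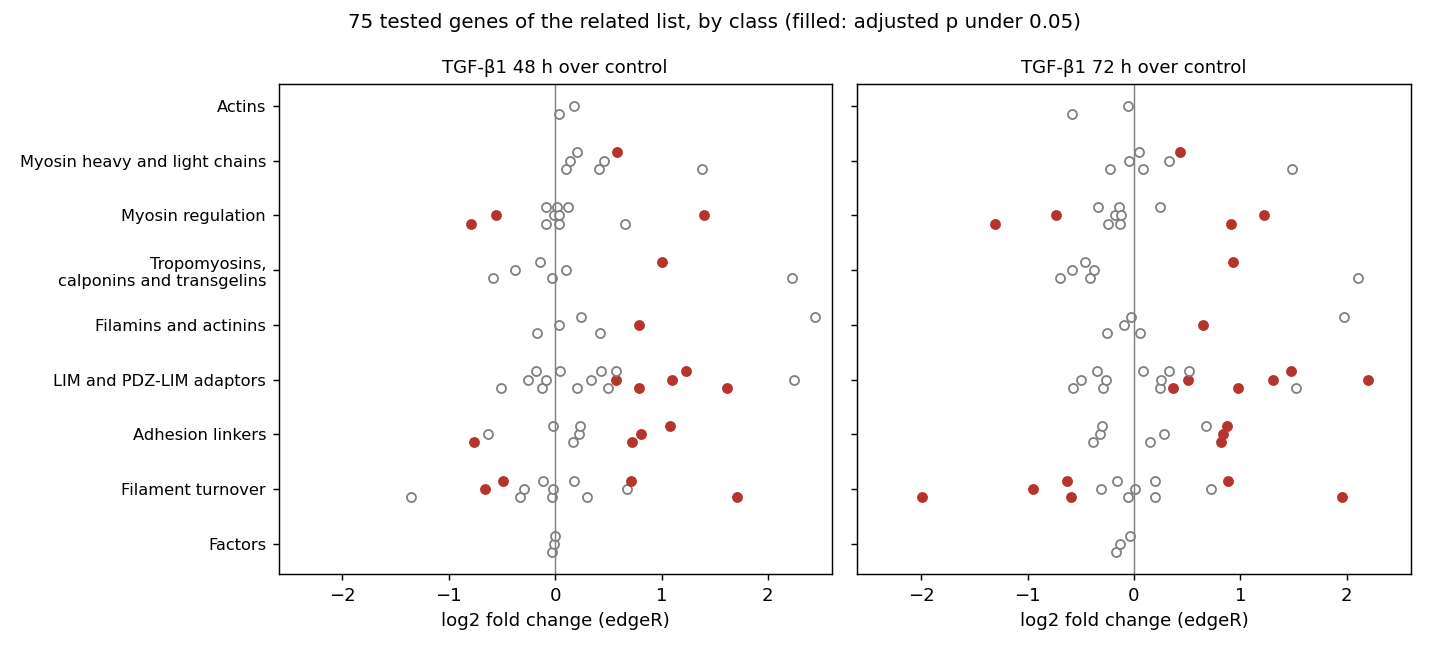
Log2 fold changes over control of the 75 tested genes of the actin and myosin system, at 48 h on the left and 72 h on the right, by class, filled where the adjusted p was under 0.05. Filled points of the LIM and PDZ-LIM class all lie to the right of 0, and those of filament turnover lie on both sides. In the LIM and PDZ-LIM class 29.4% were called at 48 h and 35.3% at 72 h, against 31.0% and 39.8% of all genes tested.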

How the data were processed

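RNA-seq of total RNA gave 9 libraries. The authors deposited 1 read count per Ensembl gene and library, with no normalization, and the submitters' processing notes name featureCounts 1.5.0-p1 and STAR 2.5.2a on hg38, FastQC 0.11.5 and bcl2fastq 2.17.1.14. The annotation release, the strand setting or the use of multiple alignments is not given in the sources used here. Symbols and coordinates are from GENCODE 29 (GRCh38), which held 57895 of 58233 identifiers. No replicates were alike within sampling error (chi-square over its degrees of freedom, 8.99 to 159).

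Genes were tested with edgeR 4.0.16 (R 4.3.3), with TMM scaling, filterByExpr, 1 model of group over all 9 libraries, robust quasi-likelihood F tests and, over all tested genes, Benjamini-Hochberg adjusted p-values under 0.05. Standard errors were approximated from the fold change and its F statistic, and 95% intervals use them. The replicate number pairs the libraries, since by the labels it marks 1 passage. Their deviations from group means correlated at -0.03 to 0.49. Alternatives were DESeq2 1.42.0, 2 other scalings, 2 other filters, the replicate block, fits of only the groups compared, and omission of each library or passage. The members and lists were chosen with earlier results of these data known. From each class of the related list, the 2 genes of largest mean change are named, if called at 48 h and 72 h and averaging 1 CPM in the higher group. Counts, calls and class sizes are given for the rest, with the actins, MYLK, SRF and its cofactors named after their values were seen.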

Additional observations from a re-analysis of the deposited data

How the results depend on the processing

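All 4 members that rose at 48 h and at 72 h kept their direction in all 19 alternatives. The number of members called was 4 or 5 under other scalings, filters, DESeq2, the replicate block and fits of only the groups compared. Over those settings 4773 to 6161 of all genes passed at 48 h and 5651 to 6465 at 72 h, with 13963 to 36944 genes tested. In the 48 h fit of only the groups compared MYL9 was filtered out, and 9 members were tested. With the replicate block 4 members were called at 48 h and 5 at 72 h, with 5113 and 6465 genes in all, and among members only the call of TPM2 at 72 h changed. Among members without a call against control, the sign changed at 48 h in 2 alternatives each for ACTA2 and TAGLN and in 3 each for MYL9 and MYH9. At 72 h it changed in 6 for TPM1 (-0.36 to 0.14) and 1 for MYH9. Over fits without 1 library or 1 replicate number, members called ran from 0 to 4 at 48 h and 1 to 5 at 72 h, related genes called from 3 to 26 and 11 to 24, and all genes called from 765 to 6289 and 2602 to 6184. Without replicate number 1, 0 members were called at 48 h and 1 at 72 h (FLNC), with 765 and 3110 of 15650 genes, and the 48 h log2 fold changes were 1.10 for CALD1, 1.31 for LIMA1, 1.33 for FLNC and 0.87 for PDLIM7. Without number 2, 1 member was called at 48 h (CALD1), with 1375 of 15533 genes. Fewer libraries were fitted there. For 72 h against 48 h, 39 genes were called by DESeq2 and 211 with no filter on low counts, against 0, and the cause was not tested. Of 569 member values under alternatives, 541 kept their side of the threshold, 6 gained a call, 22 lost one and 0 called values reversed. ACTA2, TAGLN and MYL9 were at 5 to 84 counts a library. At 72 h the approximate SE was 0.48 for TAGLN and 0.65 for MYL9. It was 0.35 for ACTA2, close to the 0.34 of the abundant MYH9 and the 0.33 of FLNC. The cause of the wider intervals was not tested.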
